A study of Mus musculus with 12 samples.

Results

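Endoplasmic reticulum (ER) stress response genes were examined in the livers of 6 male C57BL/6J mice, 2 each from the Control, Sham and VSG groups. The list holds 31 genes of 24394 in the expression table and was set by gene name. It comprises 14 genes of protein folding, 5 of disposal, 6 sensors and transcription factors, and 6 targets of ATF4. Control mice were fed standard chow for 28 weeks and had no operation. Sham and VSG mice received a diet with 60% of calories from fat from 8 weeks of age, for 14 weeks before and 14 weeks after surgery. In VSG (vertical sleeve gastrectomy) about 80% of the stomach was resected, while Sham mice had only pressure applied to the stomach. Diet, surgery and postoperative care therefore separate Control from both other groups together, and their parts cannot be told apart in comparisons with Control. RNA-seq and FAIRE-seq, which recovers the open and nucleosome-poor DNA of the genome, were each run on 2 livers a group.

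The ER is where secreted and membrane proteins fold, and the hepatocyte, which makes most plasma proteins, depends heavily on it. When unfolded proteins build up, 3 membrane sensors are engaged: IRE1 (gene Ern1) splices the mRNA of Xbp1, ATF6 is cut to release a transcription factor, and PERK (gene Eif2ak3) phosphorylates the translation factor eIF2α, which favours translation of ATF4. XBP1 and ATF6 drive chaperone and disposal genes, largely through the ER stress response elements ERSE and ERSE-II, whereas ATF4 drives genes of amino acid supply, redox balance and cell death through composite elements shared with C/EBP proteins. The mRNA level of Atf4 and Xbp1 reads these arms only indirectly, because ATF4 is set largely by translation and active XBP1 by splicing.

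These elements were searched for in the RefSeq promoter windows of mouse genes (GRCm38.p6, from 250 bases before to 50 after a start site, both strands), which were matched for 28 of the 31 genes. The ERSE was spelled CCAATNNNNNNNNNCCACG, and 9 of 28 listed genes held it against 0.137% of 27025 genes. They were 7 of the 12 folding genes with a window and 2 of the 5 disposal genes. Their copies are shown because the share is far above that of all genes. The list was set by membership in this response, which acts largely through these elements, so the high share is no independent result. The same holds for the ERSE-II and ATF4 elements below. Capitals mark the fixed letters, each copy is written in the direction of the motif, and positions count from the start site.
Hspa5 (-65 to -47): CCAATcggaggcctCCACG
Hsp90b1 (-212 to -194): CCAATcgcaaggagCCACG
Hsp90b1 (-107 to -89, opposite strand): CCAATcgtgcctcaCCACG
Calr (-162 to -144, opposite strand): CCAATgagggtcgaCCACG
Canx (-145 to -127): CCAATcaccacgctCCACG
Pdia6 (-98 to -80): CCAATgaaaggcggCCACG
Dnajc3 (-105 to -87): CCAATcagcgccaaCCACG
Creld2 (-126 to -108, opposite strand): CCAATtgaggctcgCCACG
Syvn1 (-44 to -26): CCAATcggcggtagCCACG
Derl3 (-156 to -138, opposite strand): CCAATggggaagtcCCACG

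The shorter ERSE-II (ATTGGNCCACG) was found in Herpud1 and Dnajb11, against 0.0444% of genes. The ATF4 and C/EBP element (TGATGNAA) was found in 3 of the 6 ATF4 targets and in Herpud1, against 4.51% of genes, and in none of the 12 folding genes with a window. The cyclic AMP response element (TGACGTCA) was found in Ppp1r15a alone, against 2.03% of genes, and TGACGTGG, the core of the unfolded protein response element, in none of the 28, against 0.714%. Herpud1 held both an ERSE-II and an ATF4 element.
Herpud1, ERSE-II (-52 to -42): ATTGGgCCACG
Dnajb11, ERSE-II (8 to 18): ATTGGcCCACG
Herpud1, ATF4 element (-112 to -105, opposite strand): TGATGcAA
Chac1, ATF4 element (-193 to -186, opposite strand): TGATGcAA
Trib3, ATF4 element (15 to 22, opposite strand): TGATGtAA
Asns, ATF4 element (-23 to -16): TGATGaAA

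The 250 bases before the start of Hspa5 and Asns are given on the strand of the gene, with the ERSE of Hspa5 and the ATF4 element of Asns in capitals, as an example of each class. The Hspa5 stretch lies at chr2:34771840-34772089 (plus strand) and the Asns stretch at chr6:7693210-7693459 (minus strand), both in GRCm38.p6.
Hspa5: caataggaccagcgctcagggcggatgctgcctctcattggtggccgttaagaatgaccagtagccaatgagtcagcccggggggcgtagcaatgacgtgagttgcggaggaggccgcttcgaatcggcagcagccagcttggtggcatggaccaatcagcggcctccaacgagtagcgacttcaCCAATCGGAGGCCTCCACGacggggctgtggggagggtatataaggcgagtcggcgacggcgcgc
Asns: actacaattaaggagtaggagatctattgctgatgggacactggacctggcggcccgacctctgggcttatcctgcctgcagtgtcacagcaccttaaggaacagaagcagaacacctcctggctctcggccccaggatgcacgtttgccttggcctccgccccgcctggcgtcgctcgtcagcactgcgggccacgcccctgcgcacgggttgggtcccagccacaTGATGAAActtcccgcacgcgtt

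Expression is given as FPKM, which scales fragments by transcript length and library size, summed over the RefSeq transcripts of a gene. The relative depth of the 6 libraries, read from the smallest steps of the low values, ranged from 0.676 in Sham mouse 1 to 1.56 in VSG mouse 1, with Control mouse 1 set to 1. The 8 of 10 hepatocyte marker genes that were in the table summed to 19310 and 16057 FPKM in Control, 14930 and 9967 in Sham, and 16656 and 12376 in VSG mice. All 8 had a fitted value below 0 in Sham against Control, with a median of -1.52 and 1 called lower (adjusted p = 0.0453 by limma), and 7 of 8 were above 0 in VSG against Sham. Apob and Hnf4a were listed at 0 in Sham mouse 1, and their fitted values rest in part on these zeros. In Sham mouse 2 Apob was at 231 FPKM, within the Control range, and Hnf4a at 73.3, above both Control and both VSG mice. The direction of Hnf4a in both comparisons thus rests on the 0. The part of the hepatocyte markers in the values below was not tested. Genes were tested with limma on log2(FPKM + 1), where they reached an FPKM of 1 in at least 2 mice, and were called at an adjusted p under 0.1. A total of 9833 genes were tested, 29 listed genes among them. Ern1 and Sesn2, a stress-induced regulator of mTORC1, were listed at 0 in all 6 mice and were not tested. A value of 0 in this table can be a failed estimate, as Hyou1 and Sel1l, with clear values in the other 5 mice, were also at 0 in Sham mouse 1. With 2 mice a group an exact permutation test of a single gene cannot go below p = 0.333, and p-values measure only the spread among these 6 livers. In whole liver, a lower level can reflect fewer cells of a type or less RNA per cell, and these cannot be told apart.

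No listed gene was called in any of the 3 comparisons. The count furthest above its background lay between VSG and Sham mice in the folding genes, of which 11 of 14 (78.6%) were lower in both VSG mice than in both Sham mice. Of all genes tested, 9.77% had both VSG mice below both Sham mice. The median fitted difference of the 14 folding genes was -0.53 on the log2 scale, beside 0.08 for all genes. The mouse with the highest values differed between the classes, being Sham mouse 1 for 9 of 14 folding genes and Sham mouse 2 for 4 of the 5 ATF4 targets tested.

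The most abundant folding genes encode the general chaperones and lectins of the ER lumen. Calr, the calcium-binding lectin chaperone calreticulin, was at 353 and 273 FPKM in Control, 628 and 458 in Sham, and 368 and 250 in VSG mice. Both Sham mice lay above the other 4 mice. The Control mean was 313 ± 56.5 (SD, n = 2), the Sham mean 543 ± 120 and the VSG mean 309 ± 83.2, with a fitted VSG against Sham difference of -0.82 (SE 0.33, adjusted p = 0.944 by limma). Hspa5, which encodes BiP, the Hsp70 chaperone that binds the stress sensors, was at 170 and 189 FPKM in Control, 238 and 238 in Sham, and 218 and 105 in VSG mice. VSG mouse 1 was close to the Sham mice and VSG mouse 2 was below every other mouse, so the difference of -0.65 (SE 0.39) rested mostly on VSG mouse 2. Hsp90b1 (GRP94, the Hsp90 of the ER) was at 285 and 252 FPKM in Control, 326 and 247 in Sham, and 219 and 182 in VSG mice. Its VSG mice lay below all 4 others, with fitted differences of -0.50 (SE 0.26) against Sham and -0.42 (SE 0.26) against Control. Canx, the membrane-bound partner of calreticulin, varied little, at 59.9 and 58.5 FPKM in Control, 55.8 and 53.1 in Sham, and 47.5 and 48.4 in VSG mice. The 3 groups of Canx did not overlap, although the steps were small, at -0.12 (SE 0.19) from Control to Sham and -0.18 (SE 0.19) from Sham to VSG.

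The protein disulfide isomerases form and reshuffle disulfide bonds, and 2 of the 3 had both VSG mice below both Sham mice, as Calr did. Pdia3, which works with calreticulin on glycoproteins, was at 173 and 141 FPKM in Control, 270.0 and 151 in Sham, and 142 and 121 in VSG mice, a VSG against Sham difference of -0.62 (SE 0.35). Pdia6 was at 123 and 103 in Control, 163 and 112 in Sham, and 111 and 93.2 in VSG mice, a difference of -0.41 (SE 0.28). In both genes Sham mouse 1 stood above all other mice, while Sham mouse 2 lay within the Control range. Pdia4 differed from them, with 36.4 and 34.0 FPKM in Control, 45.4 and 111 in Sham, and 69.8 and 44.7 in VSG mice. All 4 mice on the high-fat diet were above both Control mice, Sham mouse 2 most of all, and the VSG mice overlapped the Sham mice.

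Among the co-chaperones, which steer substrates to BiP, Dnajb11 was at 49.1 and 41.9 FPKM in Control, 54.7 and 48.8 in Sham, and 46.3 and 26.2 in VSG mice (VSG against Sham -0.56, SE 0.32). Dnajc3, a co-chaperone known as an inhibitor of PERK, was at 55.1 and 56.2 in Control, 37.9 and 44.3 in Sham, and 33.1 and 36.3 in VSG mice. Dnajc3 stepped down from group to group with no overlap, and its VSG against Control difference was -0.67 (SE 0.20, limma unadjusted p = 0.0206, adjusted p = 0.444). Dnajb9, another J-domain partner of BiP, was at 22.5 and 33.1 FPKM in Control, 22.6 and 35.6 in Sham, and 32.0 and 29.1 in VSG mice, with all groups overlapping. Hyou1, a large nucleotide exchange factor of BiP, was at 15.7 and 12.5 in Control, 0 and 13.3 in Sham, and 5.27 and 8.53 in VSG mice. Its VSG mice lay below both Control mice and below Sham mouse 2.

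Sdf2l1, a cofactor of the BiP cycle, had the largest contrast between Sham and VSG mice among the folding genes. It was at 19.6 and 13.1 FPKM in Control, 45.5 and 23.5 in Sham, and 16.4 and 13.6 in VSG mice, with means of 34.5 ± 15.5 (SD, n = 2) in Sham and 15.0 ± 1.97 in VSG mice. Its VSG against Sham difference of -1.08 (SE 0.39) had an unadjusted p of 0.0409 and an adjusted p of 0.944 by limma. Manf, a secreted ER-resident protein, was at 14.1 and 16.9 FPKM in Control, 36.9 and 32.7 in Sham, and 27.3 and 11.1 in VSG mice. Both Sham mice of Manf were above the 4 other mice, with a Sham against Control difference of 1.12 (SE 0.44) and a VSG against Sham difference of -0.95 (SE 0.44). Creld2, a disulfide isomerase-like protein, was at 37.5 and 35.5 in Control, 39.3 and 27.1 in Sham, and 24.3 and 11.0 in VSG mice, lowest in VSG mice against Sham (-0.95, SE 0.42) and against Control (-1.11, SE 0.42, limma unadjusted p = 0.0462, adjusted p = 0.511).

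**Figure D1:**
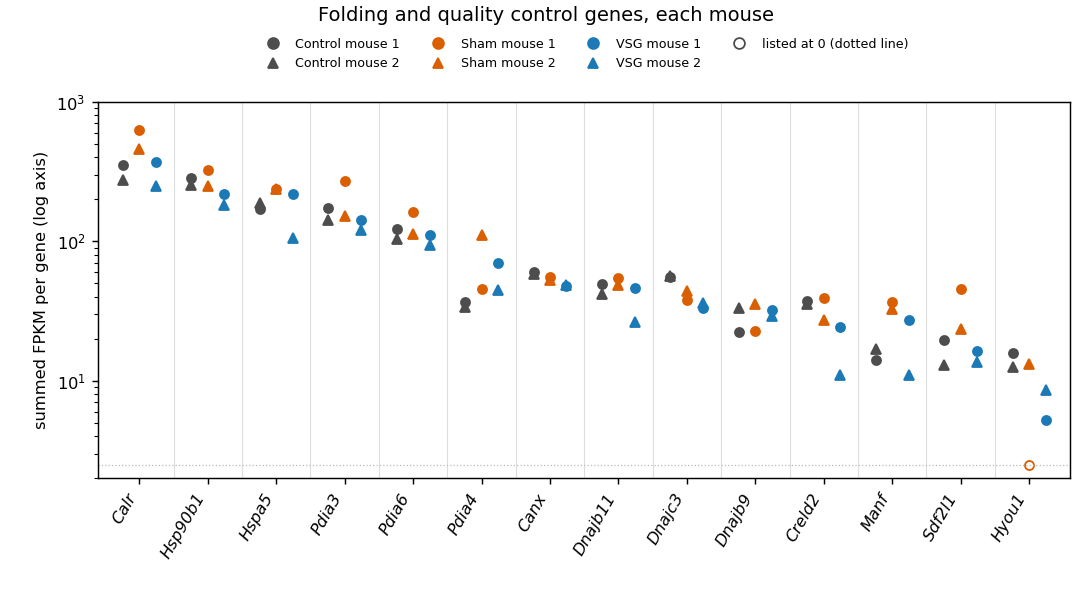
FPKM of the 14 folding genes in each of the 6 mice (log axis, colour for the group, circles for mouse 1 and triangles for mouse 2, open symbols for a value listed at 0). In 11 genes both VSG mice lie below both Sham mice, and Sham mouse 1 is the highest of the 6 mice in 9 genes.

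A folding gene with both VSG mice below both Sham mice keeps that order when a mouse is left out. The counts with a mouse left out could thus not fall below 11 of 14 and do not show stability. Only the count after scaling could fall. The number lower in VSG was 14 of 14 without Sham mouse 1 (25.9% of all genes), 11 without Sham mouse 2 (30.5%), 12 without VSG mouse 1 (23.0%) and 11 without VSG mouse 2 (23.5%), and 11 after median-ratio scaling (14.1%). The median of -0.53 became -0.29 without VSG mouse 2. The other folding genes of the ER, a list of 42 that holds translocon, signal peptidase and oligosaccharyl transferase subunits among others, gave a lower share: 5 of 40 tested (12.5%) were lower in both VSG mice, near the 9.77% of all genes, with a median of -0.08. This count too could only stay or rise when a mouse was left out, and it had more room to rise than the folding count. It was 11 of 40 (27.5%) without Sham mouse 1, 24 (60.0%) without Sham mouse 2, 18 (45.0%) without VSG mouse 1, 7 (17.5%) without VSG mouse 2 and 12 (30.0%) after scaling, beside the same shares of all genes as above. No test compared the 2 lists.

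Against Control, 10 of the 14 folding genes had a fitted value above 0 in Sham mice and 4 below, with a median of 0.23 beside 0.03 for all genes. The groups did not overlap for Calr, Hspa5, Pdia4, Sdf2l1 and Manf, which were higher, and for Canx and Dnajc3, which were lower. That is 35.7% higher, beside 25.4% of all genes with both Sham mice above both Control mice, and 14.3% lower, beside 20.5% with both below. Without Sham mouse 1 the median was 0.05, and 10 of the 14 genes were above both Control mice in Sham mouse 1 (71.4%, all genes 46.6%) against 6 in Sham mouse 2 (42.9%, all genes 39.6%). Between VSG and Control mice the folding median was -0.25, where the median of all genes was 0.13 and thus itself shifted. Relative to that shift, Calr stood at -0.16 and Creld2 at -1.23. Pdia4 was higher in both VSG mice, where 33.8% of all genes had this order, and Hsp90b1, Canx, Dnajc3, Hyou1 and Creld2 were lower, where 14.8% had. Leaving out VSG mouse 2 gave a median of 0.00, whereas leaving out VSG mouse 1, like median-ratio scaling, gave -0.41. The same Sham mice enter the comparisons with Control and with VSG mice, so these are not independent.

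Sham mouse 1 was the highest of the 6 mice in 9 of 14 folding genes (64.3%), beside 21.1% of all genes, and VSG mouse 2 was the sole lowest in 8 (57.1%), beside 8.89%. Summed over the 14 genes, the level was 1415 and 1261 FPKM in Control, 1963 and 1596 in Sham, and 1359 and 981 in VSG mice. Other readouts differed among the same mice. The 8 acute-phase genes in the table summed to 10426 and 11248 FPKM in Control and to 32172 and 55795 in Sham mice. In VSG mice the sums were 23563 and 8842, so that VSG mouse 2 had the lowest sum there too but Sham mouse 2 the highest. Hp was the largest part of this sum, at 5340 and 5572 in Control and 11080 and 4459 in VSG mice. By gene, 5 of the 8 (62.5%) were higher in both VSG mice than in both Control mice, beside 33.8% of all genes. Only 1 (12.5%) was lower in both, beside 14.8% of all genes. Kupffer cell markers, 11 genes all tested, ranged from 36.3 to 52.9 in Control, 128 to 136 in Sham and 105 to 342 in VSG mice, with VSG mouse 2 at the opposite end, the highest. Their part in the folding values was not tested. Markers of secretory cells rich in ER were near 0: 7 plasma cell and B cell genes summed to between 1.003 and 4.63 FPKM, with none tested, and 10 pancreatic acinar genes to between 1.09 and 4.87, with Cpb1 and Cela2a at 0 in all mice.

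Disposal genes, which extract misfolded proteins from the ER for degradation, had mixed orders. Herpud1, a membrane organiser of the degradation complex, was at 328 and 307 FPKM in Control, 143 and 99.8 in Sham, and 166 and 200 in VSG mice. The 3 groups were separate, with Sham lowest and VSG between, at means of 317 ± 14.8 (SD, n = 2), 121 ± 30.3 and 183 ± 24.3. The Sham against Control difference of -1.40 (SE 0.27) had an unadjusted p of 0.00358, where 11.0% of all genes were under 0.05, and an adjusted p of 0.238 by limma, the smallest of any listed gene in the 3 comparisons. VSG mice were higher than Sham mice by 0.61 (SE 0.27, adjusted p = 0.944 by limma), and Herpud1 was the only listed gene with both VSG mice above both Sham mice, where 18.5% of all genes had that order. Its order of groups was the opposite of that of Manf, and its promoter window held an ERSE-II.

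Sel1l, the adaptor that holds the ubiquitin ligase complex together, was at 17.4 and 19.5 FPKM in Control, 0 and 21.9 in Sham, and 17.6 and 17.9 in VSG mice. Apart from the 0 in Sham mouse 1 the values were within a narrow band. Both of its transcripts were listed at 0 there, and only without Sham mouse 2 was Sel1l called in Sham against Control (adjusted p = 0.048 by limma), as was Hyou1 (0.0736). Syvn1, the ubiquitin ligase HRD1, was at 21.4 and 18.1 in Control, 20.1 and 13.3 in Sham, and 23.4 and 14.4 in VSG mice, with all groups overlapping. Edem1, which directs glycoproteins to degradation, was at 18.3 and 19.4 in Control, 18.3 and 17.8 in Sham, and 16.1 and 16.3 in VSG mice, a VSG against Sham difference of -0.15 (SE 0.19). Derl3, a derlin of the export channel, was at 5.88 and 6.02 in Control, 11.0 and 4.23 in Sham, and 5.75 and 7.38 in VSG mice, with the Sham mice on either side of all others. The median difference of the 5 disposal genes was -0.25 for Sham against Control, 0.16 for VSG against Sham and -0.09 for VSG against Control.

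The sensors and their transcription factors were unequal between the Sham mice. All 5 tested were higher in Sham mouse 2 than in Sham mouse 1, where 45.9% of all genes were, and Sham mouse 2 was the highest of the 6 mice in 4 of 5, beside 15.6% of all genes. Xbp1, the factor downstream of IRE1, was at 108 and 99.6 FPKM in Control, 68.3 and 171 in Sham, and 97.2 and 76.1 in VSG mice, and 1 of its 2 transcripts was listed at 0 in all 6 mice. Summed Xbp1 carries no measure of splicing. Eif2ak3 was low throughout, at 2.14 and 2.82 in Control, 2.605 and 5.46 in Sham, and 3.87 and 3.28 in VSG mice. Atf6 was at 11.3 and 13.9 in Control, 5.51 and 10.9 in Sham, and 8.77 and 8.70 in VSG mice, with both Control mice above the 4 others. Creb3l3, a liver factor related to ATF6 that acts on lipid and acute-phase genes, was at 151 and 169 in Control, 118 and 191 in Sham, and 161 and 177 in VSG mice. The groups of Creb3l3 overlapped in each comparison.

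Atf4 itself spanned a small range, at 60.3 and 60.8 FPKM in Control, 65.1 and 73.4 in Sham, and 61.4 and 42.3 in VSG mice. Both Sham mice were above the other 4, with a Sham against Control difference of 0.19 (SE 0.25) and a VSG against Sham difference of -0.43 (SE 0.25, adjusted p = 0.944 by limma). Its transcript level is only loosely tied to ATF4 protein, which was not measured.

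The ATF4 targets were the most variable class. Their median standard error was 0.98 on the log2 scale, beside 0.34 for all genes. Trib3, a pseudokinase that binds AKT and ATF4, was at 1.34 and 0.733 FPKM in Control, 3.13 and 10.1 in Sham, and 8.28 and 3.63 in VSG mice. All 4 mice on the high-fat diet exceeded both Control mice, by 1.75 (SE 0.60) in Sham mice (limma unadjusted p = 0.0335, adjusted p = 0.419) and by 1.70 (SE 0.60) in VSG mice (unadjusted p = 0.037, adjusted p = 0.492, limma). The VSG against Sham difference of Trib3 was -0.05 (SE 0.60), too wide an error to show that the groups were alike. Ddit3 (CHOP, a factor of stress-induced cell death) was listed at 0 in both Control mice, while Sham mice had 0 and 21.7 FPKM and VSG mice 17.4 and 0. Its values thus divided each operated group, and no fold can be given against 0.

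Asns, asparagine synthetase, was at 1.23 and 1.84 FPKM in Control, 1.39 and 14.0 in Sham, and 3.19 and 0.534 in VSG mice. Only Sham mouse 2 was high, 10.1-fold above Sham mouse 1. Chac1, which degrades glutathione, was at 8.78 and 7.84 in Control, 5.08 and 16.0 in Sham, and 3.81 and 2.97 in VSG mice, so that both VSG mice were below the 4 others, with differences of -1.22 (SE 0.52) against Sham and -1.09 (SE 0.52) against Control (adjusted p = 0.944 and 0.595 by limma). Ppp1r15a (GADD34, which restores eIF2α to its unphosphorylated state) was highest in Control, at 9.84 and 10.6, then 4.73 and 4.73 in Sham, and 7.81 and 0 in VSG mice. Trib3 and Ppp1r15a thus stood in opposite order against Control.

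**Figure D2:**
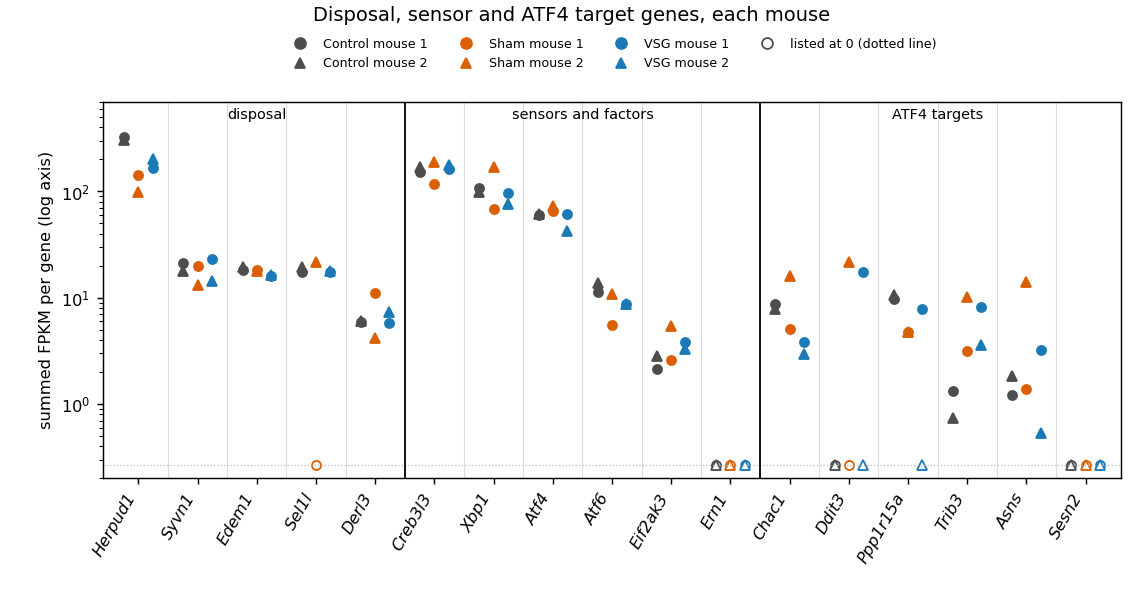
FPKM of the disposal, sensor and ATF4 target genes in each mouse (log axis, colours and symbols as for the folding genes, open symbols on the dotted line for values listed at 0). Herpud1 is lowest in the Sham mice at 143 and 99.8, and Sham mouse 2 (orange triangle) is the highest mouse in 4 of the 5 ATF4 targets tested.

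The median of the 5 ATF4 targets tested was 1.25 for Sham against Control, -0.95 for VSG against Sham and 0.01 for VSG against Control. With values at 0 taken as missing the first and second were 0.69 and -0.30, and with a pseudocount of 5 they were 0.76 and -0.28. Asking for an FPKM of 1 in all 6 mice left only 1 gene of the class, Chac1, so no class median remained. Its own differences were 0.13 for Sham against Control, -1.22 for VSG against Sham and -1.09 for VSG against Control. Single mice also moved the medians of the class. Without Sham mouse 2 the Sham against Control median was -0.07 and the VSG against Sham median 0.08, and without Sham mouse 1 they were 2.47 and -1.95. Leaving out VSG mouse 2 gave a VSG against Sham median of 0.45 and a VSG against Control median of 0.74, and leaving out VSG mouse 1 gave -1.97 and -0.71. Summed over the class, the level was 21.2 and 21.0 FPKM in Control, 14.3 and 66.6 in Sham, and 40.5 and 7.14 in VSG mice, a wider spread within each operated group than between their means. Between the Sham mice, 4 of 5 ATF4 targets were at least 2-fold apart (80.0%), beside 21.7% of all genes. The folding genes had 2 of 14 (14.3%). Ddit3, 1 of the 4, passed the filter only through Sham mouse 2 and VSG mouse 1. The median of the 5 ATF4 targets was 1.48 higher in Sham mouse 2, where the folding median was 0.16 lower (-0.16). The hepatocyte markers summed to 14930 in Sham mouse 1 and 9967 in Sham mouse 2, a sum made up mostly of Apoa1 and Ttr. Apoa1 (10246 and 7160.5), Ttr (3342 and 1011), Arg1 and Tat were lower in Sham mouse 2. Cps1, Pck1, Apob and Hnf4a were higher there, with Apob and Hnf4a listed at 0 in Sham mouse 1. The part of the hepatocyte markers was not tested.

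Sham mouse 2 and VSG mouse 1 held the 2 highest values for Asns, Ddit3 and Trib3. That order was seen in 7.09% of all genes and was noticed after the values were seen. Ddit3 was above 0 in these 2 mice alone and passed the filter only through them. Its order was thus fixed once it was tested and does not count beside that share. Sham mouse 2 and VSG mouse 1 were also the deepest of the 6 libraries, at a relative depth of 1.17 and 1.56, and the part of depth was not tested. Of the 27 other ATF4 targets tested, 11 (40.7%) had the same pair on top, among them Atf5, Fgf21, Gdf15, Psat1, Mthfd2 and the tRNA synthetase genes Cars, Gars, Mars1, Nars and Sars. Of the other folding genes, 4 of 40 did. The 10 immediate-early genes, which respond to handling and tissue stress, summed to 132 in Sham mouse 2 and 364 in VSG mouse 1, against 156 and 101.9 in Control, 93.9 in Sham mouse 1 and 83.9 in VSG mouse 2, and their part was not tested.

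Across all 29 genes tested, the Sham against Control comparison had 0 called, beside 0.305% of all genes, and 2 under an unadjusted p of 0.05, Trib3 higher and Herpud1 lower, beside 11.0%. Without overlap, 7 were higher (24.1%) and 5 lower (17.2%), no larger shares than the 25.4% and 20.5% of all genes. The VSG against Sham comparison had 0 called, beside 0.0508%, and only Sdf2l1 under an unadjusted p of 0.05, beside 4.86%. In that comparison 22 genes had a fitted value below 0 and 7 above (24.1%), beside 59.7% of all genes above 0. Without overlap, 14 (48.3%) were lower, beside 9.77% of all genes, namely 11 folding genes with Edem1, Atf4 and Chac1. The VSG against Control comparison had 0 called, beside 0.285%, and 4 under an unadjusted p of 0.05, beside 9.58%: Trib3 higher, and Dnajc3, Creld2 and Herpud1 lower. In a simulation of the Sham against Control comparison, this design recovered 2 of 100 genes changed by 1 on the log2 scale and 28 of 100 changed by 2, so differences of the size fitted for most folding genes were not detectable with 2 mice a group.

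**Figure D3:**
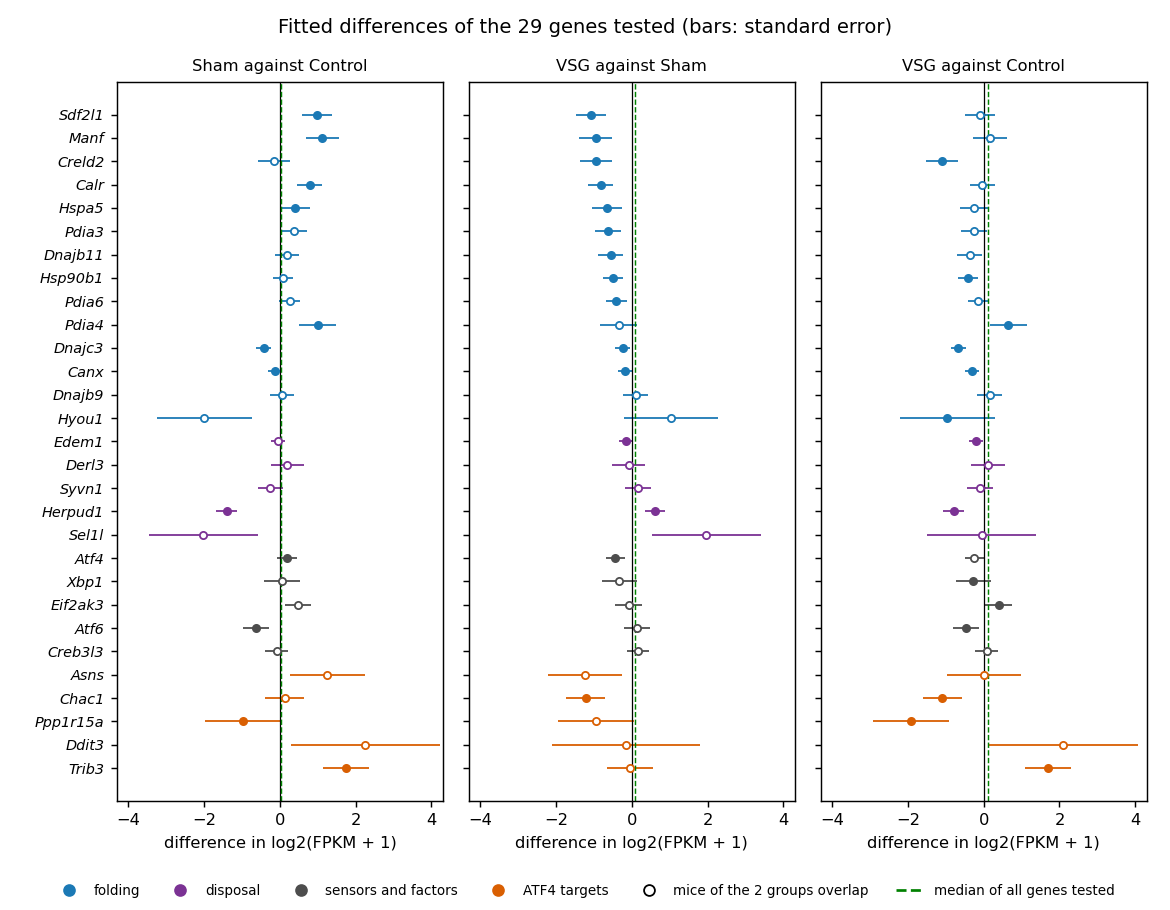
Fitted difference in log2(FPKM + 1) with its standard error for the 29 genes tested, in the 3 comparisons. Filled points mark genes whose mice do not overlap between the groups, and the dashed line marks the median of all genes. In the VSG against Sham panel 12 of 14 folding genes lie below 0, with a median of -0.53.

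The rest of the pathway was read from 111 further genes, of which 95 were tested and none was called in any comparison. Their medians were 0.12 for Sham against Control, -0.06 for VSG against Sham and 0.11 for VSG against Control. Under an unadjusted p of 0.05 (limma), 5 of the 95 were higher and 3 lower in Sham against Control, where 11.0% of all genes were under it. In VSG against Sham 2 were lower, beside 4.86% of all genes. In VSG against Control 2 were higher and 4 lower, beside 9.58%. The extremes were mostly ATF4 targets. Slc38a2, an amino acid transporter, was at 67.7 and 80.1 FPKM in Control, 16.7 and 28.5 in Sham, and 10.3 and 16.7 in VSG mice (VSG against Control -2.40, SE 0.37, adjusted p = 0.213 by limma). Fgf21, a fasting and stress hormone of the liver, was at 4.55 and 7.75 in Control, 21.1 and 116 in Sham, and 121 and 10.1 in VSG mice. As with Ddit3, 1 mouse of each operated group was high. Atf5, a factor related to ATF4, was at 107 and 108 in Control, 266 and 440 in Sham, and 408 and 123 in VSG mice. Gdf15, a stress hormone, was at 11.4 and 13.2 in Control, 20.9 and 38.7 in Sham, and 79.7 and 27.6 in VSG mice. Gpt2, an alanine aminotransferase, was lowest in Sham mice, at 153 and 148 in Control, 28.96 and 81.8 in Sham, and 165 and 96.2 in VSG mice. Ddit4, an inhibitor of mTORC1, was highest in Control, at 7.88 and 8.17 against 4.61 and 5.79 in Sham and 3.21 and 1.76 in VSG mice.

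The remaining genes with the largest VSG against Sham differences were Psph, Erp29 and Eprs. Psph, of serine synthesis, had 0 and 2.67 FPKM in Control, 4.85 and 4.63 in Sham, and 0 and 1.91 in VSG mice. A 0 thus also stood in a Control mouse. Erp29, a lumenal folding factor, was at 34.1 and 30.5 in Control, 56.6 and 41.4 in Sham, and 40.5 and 6.47 in VSG mice. Eprs, a tRNA synthetase, was at 8.75 and 13.2 in Control, 4.24 and 11.0 in Sham, and 19.8 and 13.6 in VSG mice. VSG mouse 2 was again the lowest mouse for Erp29.

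In chromatin, nearly all listed genes had an accessible promoter in every group. A FAIRE peak lay within 1000 bp of a start site for 29 of 31 genes in the Control list, 30 in the Sham list and 29 in the VSG list (93.5%, 96.8% and 93.5%), beside 89.9%, 89.5% and 90.9% of 8427 genes tested. Each list combines 2 mice, so no error between mice is available, and signals were ranked only within a list. The median rank of the strongest peak was at the 96.6, 96.9 and 96.9 percentile of the Control, Sham and VSG lists for listed genes, and at 86.1, 85.6 and 87.7 for all genes tested. The Hspa5 promoter peak ranked at 99.8, 99.5 and 99.3 and that of Calr at 99.7, 99.7 and 98.3. Ern1 and Sesn2, both without measured RNA, also had strong promoter peaks, at 98.5, 97.1 and 99.5 for Ern1 and 98.5, 99.7 and 99.9 for Sesn2.

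**Figure D4:**
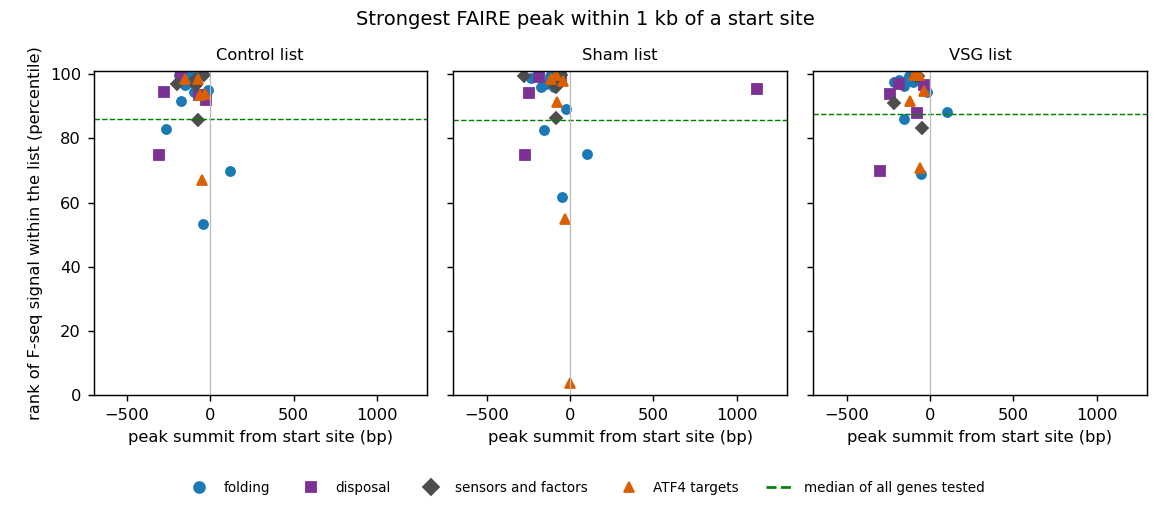
Rank of the strongest FAIRE peak near each listed gene within its own list (percentile) against the distance of its summit from the start site in bp, for the 3 lists. Most points lie above the dashed median of all genes and just upstream of the start, and the 1 point near the bottom of the Sham panel is Asns, at 3.80.

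The exceptions were Creb3l3, with no peak within 1000 bp in any list, and Asns, with a peak only in the Sham list. The Asns peak (chr6:7643061-7643396, mm9) covered the start site and the ATF4 element printed above, which lies at chr6:7643225-7643232 in mm9. It was among the weakest of the Sham list, with a signal of 0.202 where the lowest was 0.193, and it was lost when the same number of peaks was taken from each list. The Sham list was also the longest, with 52881 peaks against 42204 in Control and 44539 in VSG. Asns RNA was high in Sham mouse 2 alone, and the combined list does not show which Sham mouse carried the peak.

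When the same letters were searched for in mm9 windows, where all 31 genes had a start site, Xbp1 was added to the ERSE genes, and Hyou1 and Manf to the ERSE-II genes. Hyou1 also held the core of the unfolded protein response element, overlapping one of its ERSE-II copies. Of 11 ERSE copies in 10 genes, 10 lay in a peak in the Control list, and 11 in the Sham and VSG lists. The exception was the copy in Derl3, just outside the Control peak. All 5 ERSE-II copies lay in peaks in the 3 lists, as did the ERSE of Hspa5 at chr2:34627545-34627563 in mm9. Of the 4 ATF4 elements, 3, 4 and 3 lay in peaks of the Control, Sham and VSG lists, Asns being the difference.

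The remaining marker lists were read once for the 6 livers, in FPKM summed over a list, with their part in the results above not tested. The 8 neutrophil genes were at 4.91 to 12.4 in Control, 41.7 to 45.6 in Sham and 16.4 to 21.9 in VSG mice, with Ly6g at 0 in all. The 7 monocyte and macrophage genes were at 42.5 to 43.6 in Control, 109 to 203 in Sham and 45.7 to 180 in VSG mice, and the 6 cholangiocyte genes at 30.7 to 32.8, 62.9 to 186 and 30.9 to 145. Both lists hold Spp1, which alone was at 183 in Sham mouse 1. Without Spp1 the monocyte and macrophage genes summed to 20.2 in Sham mouse 1 and 50.2 in Sham mouse 2. Most of both sums was Cd9, at 15.3 and 40.8, while Trem2 was at 2.88 and 3.39 and Ly6c2 at 0.699 and 0.530. The cholangiocyte genes summed to 2.54 and 4.58 without Spp1. The 8 endothelial genes were at 16.6 to 40.4 in Control, 4.13 to 7.60 in Sham and 22.1 to 26.0 in VSG mice, and the 8 stellate cell genes at 46.7 to 48.0, 17.5 to 30.96 and 51.4 to 65.5.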

How the data were processed

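RNA-seq (50-bp reads) and FAIRE-seq were run by the authors on livers of Control, Sham and VSG mice, 2 a group and 12 samples in all. The labels give poly(A) RNA, whereas the methods name rRNA depletion. FPKM values per RefSeq transcript were computed by the authors with Cufflinks after TopHat2 alignment to mm9 and deposited for each mouse. The F-seq signal of each FAIRE peak was deposited by the authors in 1 list per group, of peaks reproducible over 2 mice by IDR. The authors' DESeq2 tables (mean count, fold change and p-value of their own comparisons) and lists of variable sites were not used.

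FPKM was summed per gene, with 34610 of 34933 transcripts matched to a RefSeq gene. Genes reaching an FPKM of 1 in 2 or more mice were fitted with limma 3.58.1 (R 4.3.3) on log2(FPKM + 1), a pseudocount of 1, with 6 mice in 1 fit, a trend in the moderated variance, and Benjamini-Hochberg adjustment over all 9833 genes at an FDR of 10%. A difference on this scale understates the change of low genes. FPKM holds no counts, so depth is known only as relative steps. Start sites came from GENCODE vM1 (mm9) and promoter windows from RefSeq (GRCm38.p6). Python 3.11.15 with pandas 2.3.3, numpy 2.4.6, scipy 1.17.1 and matplotlib 3.10.9 did the rest. The scripts were tested on simulated data.

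The listed genes, the gene and marker lists, the tests and the alternatives were chosen with earlier results of these data known. Named genes are all listed genes and, from the other pathway genes, any called (none was) and the 2 highest and 2 lowest of each comparison, besides those named after their values were seen. Replicate numbers were not taken as pairs. Alternatives covered the pseudocount, filter, scaling, feature, samples in the fit, replicate block, variance trend, each mouse left out and, added after the data were seen, values at 0 taken as missing, the count of separated folding genes and marker sums without Spp1.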

Additional observations from a re-analysis of the deposited data

How the results depend on the processing

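No listed gene was called under any alternative, except without Sham mouse 2, where the number called ranged over the mice left out from 0 to 2 for Sham against Control and from 0 to 1 for VSG against Sham (0 for VSG against Control). The genes were Hyou1 (adjusted p = 0.0736) and Sel1l (0.048) in the first and Sel1l (0.0646) in the second, by limma, and rest on the 0 listed in Sham mouse 1, the lone Sham mouse being assumed to vary like the other groups. Medians of folding genes ranged over the mice left out from 0.05 to 0.32 (Sham against Control), -0.70 to -0.29 (VSG against Sham) and -0.41 to 0.00 (VSG against Control), and those of ATF4 targets from -0.07 to 2.47, -1.97 to 0.45 and -0.71 to 0.74. With median-ratio scaling and quantile normalization the folding median was -0.63 and -0.73 for VSG against Sham, and -0.41 and -0.43 for VSG against Control. All 31 genes had a Sham peak with a window of 5000 bp. With the replicate block 0 listed genes were called in each comparison, the medians were unchanged at 0.23, -0.53 and -0.25 for folding genes, and calls over all genes went from 30, 5 and 28 to 9, 0 and 10. The deviation of mouse 1 from its group mean was correlated over genes between groups. It gave 0.113 for Control and Sham, 0.0574 for Control and VSG, and 0.0311 for Sham and VSG, so the numbers were not taken as pairs. Calls over all genes also ranged from 0 (FPKM of at least 1 in all 6 mice) to 157 (Sham against Control without Sham mouse 2). With no filter the 3 comparisons had 64, 6 and 40 calls, and with values at 0 as missing 7, 0 and 1. With pseudocount 0.1 and 5 the VSG against Sham calls were 8 and 1, and with the 2 groups alone 0. The cause of these differences was not tested. Of 1459 values of single genes, 1382 kept their direction and side of the threshold, 74 that were not called changed sign and 3 became called. FPKM gives no counts, so no depth interval can be set on a value.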
